A study of Drosophila melanogaster with 2 samples.

Results

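SR proteins are RNA-binding proteins that carry a domain rich in arginine and serine and act in pre-mRNA splicing. The described set holds 9 genes of Drosophila melanogaster: SF2 (CG6987), B52, SC35, x16, Rsf1, tra2, Srrm1 (CG11274) and the kinases SRPK and Doa. Members were taken by gene symbol from the annotation of the array. They had 16 of the 15744 probes on the array, under 8 of the 9 symbols. No probe with the single symbol x16 was found, so x16, the fly relative of 9G8, was not analysed here. Of the 16 probes, 14 had a value on both arrays and stood among the 10912 probes tested.

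PolyA RNA of larvae from GMR crossed to GFP-dASF/SF2 was set against polyA RNA of larvae from GMR crossed to GFP-NLS, the control, on 2 two-colour arrays. Both crosses carry GMR, an enhancer active in the developing eye, and both carry a GFP transgene, with dASF/SF2 in the first cross and a nuclear localisation signal in the control. Array 1 had the dASF/SF2 RNA in Cy5 and the control RNA in Cy3, and array 2 had the dyes swapped. The series addresses whether raised dASF/SF2 changes gene expression broadly. The labels give no age, sex, dissected tissue, driver line or number of larvae, and do not say whether the arrays used separate RNA extracts. The p-values therefore rest on the spread between 2 arrays, which may be technical. They come from limma, which draws each probe's spread toward that of all probes, so they do not measure a probe's own spread alone.

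SR proteins bind exonic enhancers and help the spliceosome to find nearby splice sites. SRPK kinases phosphorylate their arginine-serine domains in the cytoplasm, which allows import into the nucleus by transportin-SR, and kinases of the Clk family, to which Doa belongs, phosphorylate them further in the nucleus. The set thus spans the splicing factors, an antagonist (Rsf1), coregulators (tra2 and Srrm1) and the enzymes that modify them.

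Each value is a log ratio on the deposited scale. Neither its log base nor its numerator is stated in the sources at hand. The labels name the dASF/SF2 cross as the source of channel 2 on both arrays, whichever dye it carried. If the ratios follow these channels, array 2 needs no turning, a reading that is also given below. Array 2 was turned on the assumption of Cy5 over Cy3, and the median of each array was set to 0. Values above 0 stand for more RNA in dASF/SF2 larvae with Cy5 over Cy3, and for less with Cy3 over Cy5. If the ratios run by genotype, a turned mean sets the arrays against each other. Only a positive and a negative side are therefore named. The table holds no levels of either channel, so neither the abundance of a member nor the tissue of the larvae could be checked. In ratios, fewer cells of a type and less RNA per cell cannot be told apart.

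No member was called by limma (adjusted p under 0.05), with adjusted p from 0.771 to 0.998 over the 14 probes, and the same fit called 0% of the 10912 probes. At an unadjusted p under 0.05 limma found 0 of the 14 member probes, against 725 (6.64%) of all probes. With array 2 turned, probes of SF2, B52, SC35, Rsf1, tra2 and Srrm1 had 7 of 10 means on the negative side, and the kinase probes had 4 of 4 on the positive side, where 50.3% of all probe means were negative and 49.7% positive. Of the 10 probes 5 belong to B52, and of the 4 kinase probes 3 belong to Doa. Without turning array 2 the split did not appear, with 5 of 10 means negative (49.3% of all probes) and 3 of 4 kinase means positive (50.7%). The 14 turned means lay between -0.149 and 0.23, which is at most 1.17-fold on base 2 or 1.70-fold on base 10. Counts by role were made after the values were seen and were not tested.

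**Figure D1:**
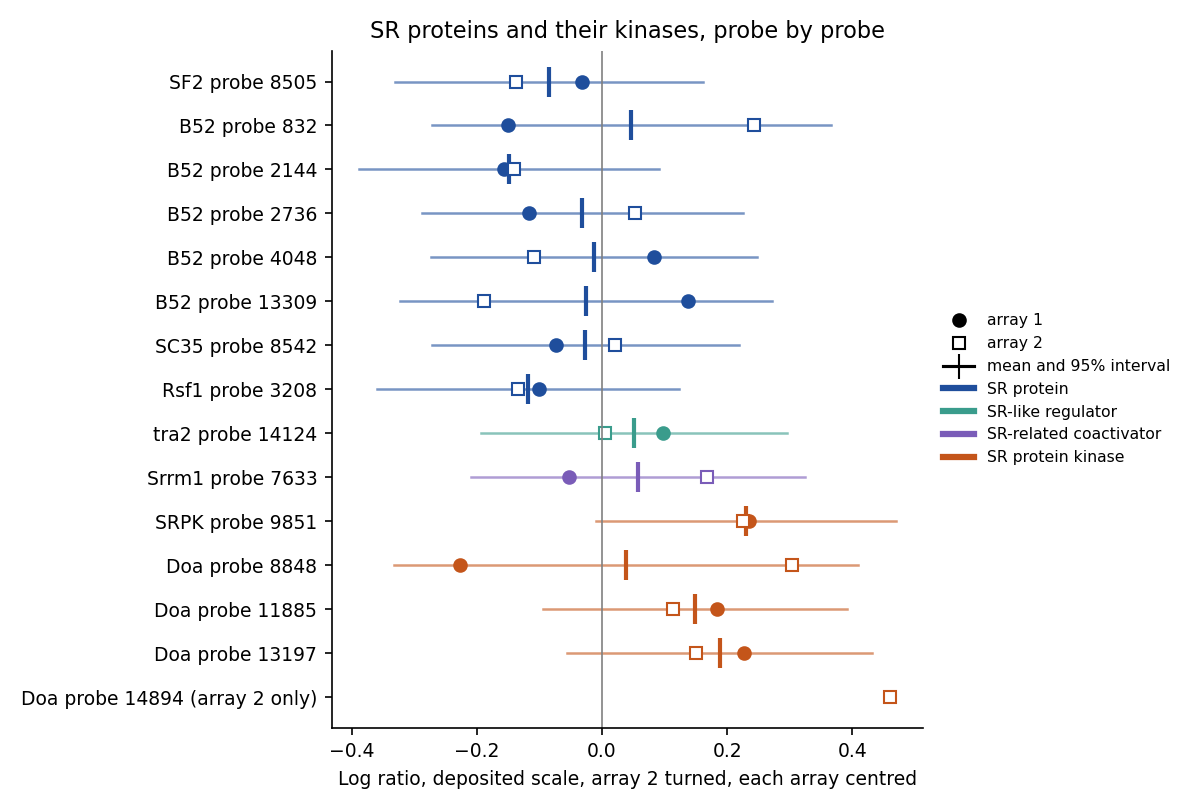
Log ratio of each member probe on array 1 (filled circle) and array 2 (open square), with the mean of both (bar) and limma's 95% interval (line), on the deposited scale after array 2 was turned and both arrays were centred; colours mark the roles. SRPK and Doa probes 11885 and 13197 lie right of 0 on both arrays, SF2, Rsf1 and B52 probe 2144 lie left of 0 on both, and each interval reaches 0.

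SF2 encodes the protein that the transgene carries. Its only probe, number 8505, had -0.032 on array 1 and -0.137 on array 2. Both arrays lay on the negative side, close to their medians. The mean was -0.0845 ± 0.0743 (SD, n = 2), which is 1.06-fold if the base is 2 and 1.21-fold if it is 10. By limma the 95% interval ran from -0.331 to 0.162 (adjusted p = 0.998). Read on base 2, the interval ends at 1.26-fold on the negative side and 1.12-fold on the positive side; read on base 10, it ends at 2.14-fold and 1.45-fold. The mean was larger in size than 54.1% of all probe means. Whether the transgene's RNA can bind this probe is not stated, so the labels cannot be checked with it.

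The probes whose pair of array values lay nearest to that of SF2 belonged to Sumo (distance 0.00361), GstD10 (0.00632) and Zw10 (0.00781). The likeness rests on 2 values per probe, and 293 of 9728 named probes of other genes lay within 0.05 of SF2.

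B52, the fly relative of SRp55 and an essential SR protein, had 5 probes, all measured on both arrays. Probe 2144 had -0.156 on array 1 and -0.141 on array 2. It was the only B52 probe with both arrays on one side, and its mean of -0.149 ± 0.0106 (SD, n = 2) was the lowest of the turned member means (limma, adjusted p = 0.949); without turning it was -0.0075. Probe 832 had -0.15 and 0.243, probe 2736 had -0.116 and 0.053, probe 4048 had 0.083 and -0.109, and probe 13309 had 0.138 and -0.189 on arrays 1 and 2. In each of these 4 the arrays lay on opposite sides of the median, and the means lay between -0.0315 and 0.0465. Averaged over the 5 probes, B52 had -0.0402 on array 1 and -0.0286 on array 2, with a mean of -0.0344 ± 0.0082 (SD, n = 2). On each array these averages joined probes on opposite sides, which pulls both toward 0. Their small SD therefore does not show that the arrays agreed on B52. Limma on gene means gave a 95% interval of -0.269 to 0.20 for B52 (adjusted p = 0.999). The probe means spanned 0.195, against a median of 0.36 for the 2 other genes with 5 measured probes.

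SC35, the fly relative of SRSF2, had 1 probe, with -0.074 on array 1 and 0.02 on array 2. The arrays lay on opposite sides, and the mean was -0.027 ± 0.0665 (SD, n = 2). Rsf1, a repressor that binds SR proteins and counters splicing activation, had -0.101 on array 1 and -0.135 on array 2. Both arrays of Rsf1 were negative and differed by 0.034, a smaller gap than in all but 12.1% of probes. Its mean was -0.118 ± 0.024 (SD, n = 2), 1.09-fold on base 2 or 1.31-fold on base 10, with a limma interval of -0.359 to 0.123 (adjusted p = 0.99).

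The protein of tra2 acts with Tra on the female exon of dsx and resembles SR proteins. Its measured probe, number 14124, had 0.097 on array 1 and 0.005 on array 2, with a mean of 0.051 ± 0.0651 (SD, n = 2). Array 2 lay almost on its median. Its other probe, number 4256, had no value on either array. Srrm1 is the fly relative of SRm160, a coactivator with an arginine-serine domain that joins SR proteins to the spliceosome. It had -0.052 on array 1 and 0.167 on array 2, so the arrays disagreed on the side, and the mean was 0.0575 ± 0.155 (SD, n = 2).

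SRPK had the mean farthest from the median among the member probes measured on both arrays, with array 2 turned. Without turning, its mean was 0.005. Its probe, number 9851, had 0.235 on array 1 and 0.225 on array 2. The 2 values differed by 0.01, a smaller gap than in all but 3.26% of probes. The mean of 0.23 ± 0.00707 (SD, n = 2) is 1.17-fold if the base is 2 and 1.70-fold if it is 10, and was larger in size than 88.8% of all probe means. The limma interval ran from -0.0101 to 0.47, and the probe did not pass (limma, adjusted p = 0.771).

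Doa encodes a LAMMER kinase known from its effect on the white-apricot eye colour allele and on sex-specific splicing. Probe 13197 had 0.226 on array 1 and 0.15 on array 2, and probe 11885 had 0.184 and 0.113. These probes lay on the positive side on both arrays, with means of 0.188 ± 0.0537 and 0.149 ± 0.0502 (SD, n = 2 each), and neither passed (limma, adjusted p = 0.875 and 0.949). Probe 8848 had -0.227 on array 1 and 0.304 on array 2, a gap of 0.531 that was wider than in 92.7% of probes, and a mean of 0.0385 ± 0.375 (SD, n = 2). Its arrays disagreed on the side more widely than those of any other member probe. Averaged over the 3 probes, Doa had 0.061 on array 1 and 0.189 on array 2, with a mean of 0.125 ± 0.0905 (SD, n = 2) and a limma interval of -0.116 to 0.366 (adjusted p = 0.999). A further Doa probe, number 14894, was measured on array 2 alone, at 0.46 after turning.

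Both arrays lay on one side for 7 of the 14 member probes, 4 positive and 3 negative, against 49.2% of all probes, 24.7% positive and 24.5% negative. The share of members was therefore near the background. The positive ones were SRPK, Doa probes 11885 and 13197 and tra2 probe 14124, and the negative ones were SF2, Rsf1 and B52 probe 2144. The median of the 14 means was 0.0128, against -0.0005 over all probes, and the median size was 0.0543, against 0.076. The median gap between arrays was 0.0995 in members and 0.151 in all probes. Of the members, 0 reached 1.5-fold on both arrays on one side when the values were read as log2, against 0.211% of all probes. Read as log10, SRPK reached it, 1 of 14, against 7.33% of all probes.

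**Figure D2:**
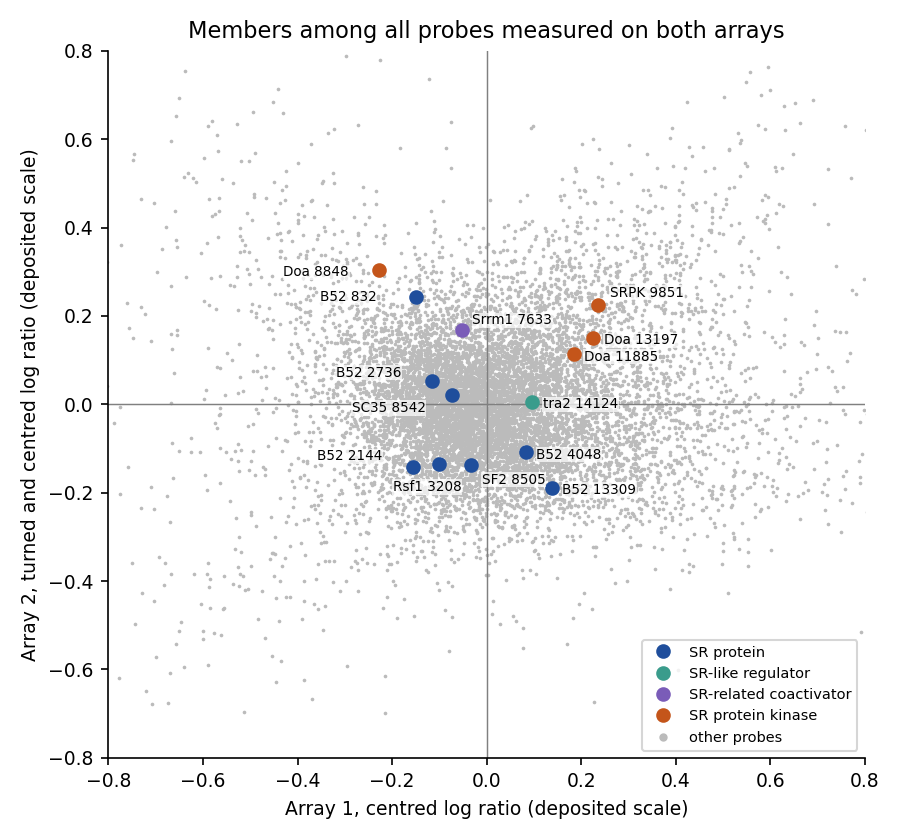
Array 1 (x axis) against turned array 2 (y axis), both centred log ratios on the deposited scale, for the probes measured on both arrays (grey) and the member probes (coloured by role, labelled with gene and probe number); 163 probes lie outside the axes at 0.8. The members lie inside the main cloud, with SRPK at 0.235 and 0.225 and Doa probe 8848 at -0.227 and 0.304.

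The other reading of the sign takes the deposited values as already running by genotype, so that array 2 is not turned. Probes whose arrays lay on opposite sides then lie on one side, and the reverse, by construction. B52 probe 832 then had a mean of -0.197, probe 2736 of -0.0845, probe 4048 of 0.096 and probe 13309 of 0.164. Means of the 5 B52 probes then spanned 0.36, wider than in both other genes with 5 measured probes (median 0.229), and both arrays lay on one side for 4 of 5, against 49.9% of all probes. Differences between blocks of the array, described below, were not subtracted from these unturned means. Doa probe 8848 had -0.266, with a limma interval of -0.514 to -0.0168 (limma, adjusted p = 0.964), while Doa probes 11885 and 13197 had 0.0355 and 0.038. SRPK had 0.005 and SF2 0.0525. This reading also called 0 of 10912 probes, with 556 (5.10%) at an unadjusted p under 0.05, of which 1 was a member probe.

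Probes of one gene gave a measurement that bears on the choice of reading. Over 737 pairs of probes of the same gene (381 genes), the turned means of the pair correlated at r = 0.299, and the means without turning at r = -0.006. For 7917 pairs of different genes next to each other in probe order, r was 0.0496 for turned means and 0.231 without turning. Pairs share a gene or a place on the array and the same 2 hybridisations, and these correlations are descriptions. In the probe order the array falls into 24 blocks, and block medians of the deposited values ran from -0.102 to 0.127 on array 1 and from -0.088 to 0.11 on array 2. With block medians subtracted, SRPK had 0.272 on array 1 and 0.18 on array 2 (mean 0.226, limma adjusted p = 0.627), and Doa probe 13197 had a mean of 0.206. SF2 then had 0 on array 1 and -0.164 on array 2, so its arrays no longer lay on one side, while those of SC35 did. B52 probe 832 had -0.045 and 0.166 on array 1 and turned array 2, and Doa probe 8848 had -0.1575 and 0.2735. Both probes thus lay closer to the median than before on each array. B52 probe 13309 had 0.1635 and -0.178, farther out on array 1 and closer on array 2. Unturned means with block medians subtracted are not given here. After this correction 1 of 14 member probes, SRPK, had an unadjusted p under 0.05 by limma, against 7.81% of all probes.

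**Figure D3:**
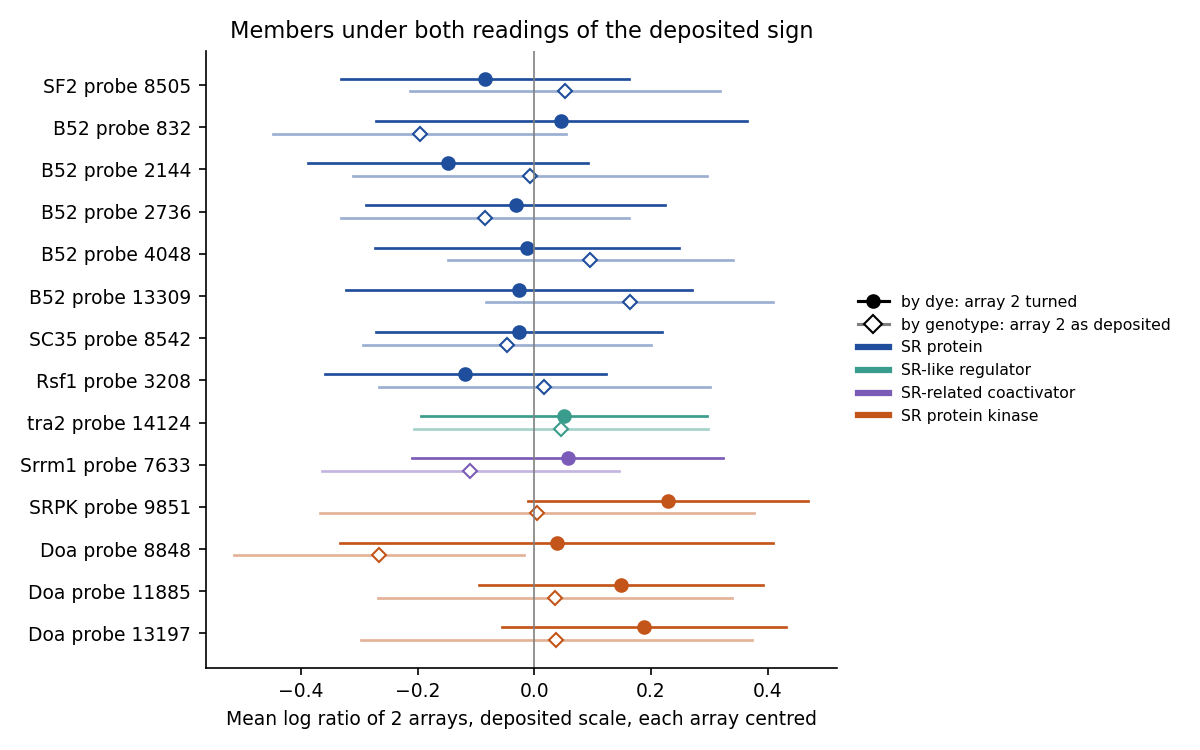
Mean log ratio of both arrays with limma's 95% interval for each member probe, with array 2 turned (filled circles) and with array 2 as deposited (open diamonds), on the deposited scale. SRPK stands at 0.23 in the first reading and 0.005 in the second, and Doa probe 8848 at 0.0385 and -0.266.

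Partners, relatives and targets of SR proteins were followed in a list, of which 20 genes had a measured probe. The 20 gene means had a median of -0.0225, against -0.001 over 9266 genes. Both arrays lay on one side for 8 of them, against 49.0% of all genes, and these 8 were negative, as were 25.0% of all genes. Without turning array 2, 12 of the 20 lay on one side, 8 positive and 4 negative, against 50.2% of all genes. By limma on gene means, 0 of the 20 were called and 0% of all genes, and 0 of the 20 had an unadjusted p under 0.05, against 7.27% of all genes. Single probes of the list had an unadjusted p under 0.05 in 2 of 25 cases, 1 of 2 probes each of Sxl and nonA. Array medians were -0.0165 and -0.064. Without turning array 2 the list median was 0.078.

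Tnpo-SR, the receptor that imports phosphorylated SR proteins, had 0.128 on array 1 and -0.221 on array 2. Srpk79D, the second fly SRPK, had 0.199 and -0.192. In both genes the arrays lay on opposite sides. With array 2 turned, the lowest gene means were those of vir, a subunit of the m6A methyltransferase that acts in Sxl splicing, with -0.149 and -0.153, and of nonA, an RNA-binding protein, with -0.059 and -0.225. Its mean of -0.142 joined 2 probes that differed, at -0.328 and 0.0435. Without turning, vir had 0.002 and nonA 0.083, and hfp (-0.139) and Pnn (-0.0835) were lowest.

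Targets of the tra and tra2 proteins had the highest means of the list under both readings of array 2, and these rested on array 1. The gene dsx, whose sex-specific exon is chosen by Tra and Tra2, had 0.95 on array 1 and -0.036 on array 2 (mean 0.457 ± 0.697, SD, n = 2). The gene fru, another target, had 0.876 on array 1 and -0.058 on array 2 (mean 0.409 ± 0.66, SD, n = 2). Array 1 alone was high in both, above 99.4% and 99.2% of genes in size, while array 2 lay near the median. Limma gave adjusted p = 0.711 for dsx and adjusted p = 0.758 for fru. The tra gene itself had -0.042 and -0.188, negative on both arrays.

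**Figure D4:**
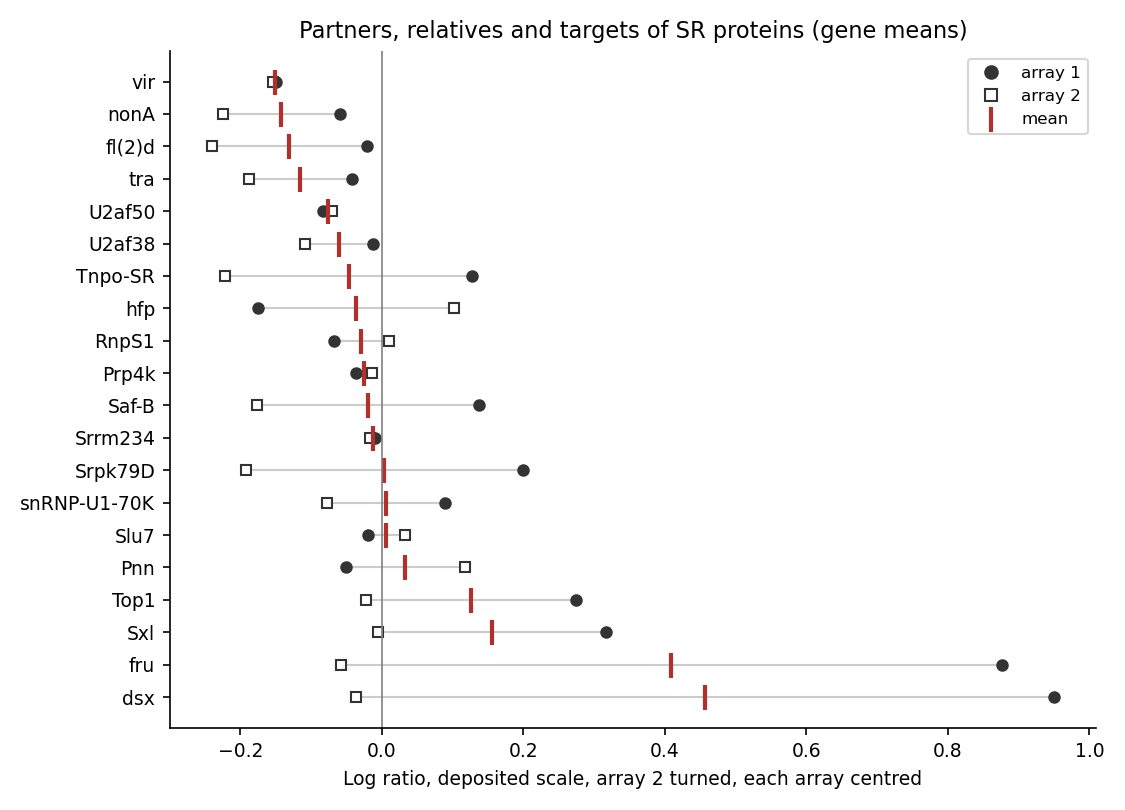
Gene means of the partner list on array 1 (filled circles) and array 2 (open squares) with the mean of both (red bars), as log ratios on the deposited scale after turning and centring, ordered by mean. Values for dsx and fru reach 0.95 and 0.876 on array 1 and lie at -0.036 and -0.058 on array 2; 8 genes lie left of 0 on both arrays.

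With array 2 turned, muscle and midgut markers lay farther from the median than the members did. The 3 measured muscle markers of 4 lay at 0.321 to 0.377 and the 3 midgut markers at -0.869 to -0.694. Each had both arrays on one side, as did 49.0% of all genes. These markers were few and were chosen with earlier results of these data known, so they do not stand for all genes of a tissue. Eye disc markers were negative on both arrays in 4 of 5, against 25.0% of all genes, and ranged from -0.235 to 0.136. The range of the eye disc markers without turning was -0.028 to 0.097. Cuticle markers were 1 positive at 0.564 and 1 negative at -0.399, and the 2 fat body markers lay at -0.065 and -0.0005. Without turning, muscle markers lay at 0.024 to 0.107 and midgut markers at -0.136 to -0.0145. These were closer to the median than Doa probe 8848 and B52 probe 832 in that reading, without subtraction of block medians. The part of these tissues in the values of SRPK and Doa was not tested.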

How the data were processed

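The authors deposited 1 log ratio per probe and array, a score whose log base, numerator, normalization and filter are not stated in the sources at hand. Per the labels, the arrays are a dye swap of the same crosses. Blank cells (3996 on array 1, 1450 on array 2) and 7 cells with the code -10000 were treated as missing, and 0 value columns were left unused. From these values, 40 places that were unnamed in all 24 blocks of 656 probes were left out as repeated features (960). Symbols came from the platform annotation (13147 probes with 1 symbol) and were updated through gene identifiers of the Release 6 plus ISO1 MT reference. Array 2 was turned, and medians of 0.003 and 0.001 over the tested probes were subtracted. Probes were tested against 0 with limma 3.58.1 in R 4.3.3 (lmFit, eBayes, two-sided, Benjamini-Hochberg over 10912 probes), with 1 residual degree of freedom. The prior variance, pooled over all probes, carried 4.51 degrees of freedom and so weighed more than a probe's own 2 values. The fitting step was run on independent values simulated from limma's own fitted model. These lacked the block differences of the arrays, so the run does not show whether the model holds for these data. The number of arrays, 2, limits the precision. Intervals are 95% and unadjusted. Gene means average the probes of a gene. All members and all of their probes are named; of the partner list, the 2 highest and 2 lowest genes and tra, dsx, Srpk79D and Tnpo-SR; of other genes, the 3 nearest to SF2. Members, lists and alternatives were chosen with earlier results of these data known. Sequences of probes, promoters and proteins were not used here.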

Additional observations from a re-analysis of the deposited data

Results flagged for a closer look

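Doa probe 14894 had a value on array 2 alone and so did not enter the comparison. At 0.46 after turning (1.38-fold on base 2, 2.88-fold on base 10), it was larger in size than 97.9% of the tested probes on array 2 and 95.8% of the 2582 probes measured on array 2 alone. It drew attention because it lies in values the comparison leaves out and on the same side as the other Doa probes on array 2. With probes on 1 array kept in the fit, limma gave adjusted p = 0.637, with the spread taken from the other probes. No dye-swapped value of this probe was analysed here.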

How the results depend on the processing

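Reading the values as already running by genotype turned the sign of 7 member probe means: SF2 to 0.0525, Rsf1 to 0.017, Srrm1 to -0.1095, Doa probe 8848 to -0.2655, and B52 probes 832, 4048 and 13309 to -0.1965, 0.096 and 0.1635. Array 2 enters with the other sign by construction, and a mean changes sign only where array 2 is larger in size than array 1. Base 10 in place of base 2 moved the member probes past 1.5-fold on both arrays to 1, by construction, since the same values are larger folds. Limma called 0 probes in each alternative fitted: no turning, no centring, centring on all features, block medians subtracted, repeated features kept, probes on 1 array kept and gene means. Probes at an unadjusted p under 0.05 ranged from 556 of 10912 without turning to 945 of 13603 with probes on 1 array kept. The numbers tested differ between alternatives, so these counts do not compare directly. Centring each array on all its own values, added after the data were seen, left 730. With 1 array left out no test is possible, and SF2 had -0.137 without array 1 and -0.032 without array 2. Each array pairs both crosses as 1 ratio, so the reported fit is already the paired one. The unknown signal over background limits what a value near 0 can show.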

Other observations

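Other probes of the partner list were looked at after their values had been seen. Sxl, the switch gene of sex determination, had 2 probes that differed: probe 8877 had 0.598 on array 1 and 0.257 on array 2 (mean 0.427, limma interval 0.127 to 0.728), and probe 13621 had 0.037 and -0.267. The nonA probe 4224 had -0.344 and -0.311 (limma interval -0.568 to -0.0869), while probe 14375 had 0.226 and -0.139. A second probe of Srpk79D, number 6971, was measured on array 2 alone, at 0.519 as deposited, and 2 further fru probes had 0.097 and 0.042 as deposited on array 2. After turning, as done for Doa probe 14894, these values lie on the negative side, opposite to that Doa probe. The Srpk79D and fru probes measured on both arrays lay on the same negative side on array 2 (-0.192 and -0.058). None of the partner probes was called by limma after adjustment over all probes.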
